A study of Mus musculus with 15 samples.

Results

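The genes described here are 51 members of the machinery that carries a cell through mitosis and parts its chromosomes, picked by gene symbol from a table of 17030 mouse genes. All 51 were found in the table, and all 51 passed the filter on low values, an FPKM of 1 in at least 3 of 15 libraries, which 11793 genes passed. FPKM is the number of fragments scaled by transcript length and library total, so levels of different genes can be set side by side on it. The RNA came from 5 groups of 3 libraries each. CAR macrophages carried the genotype label CAR expression and the treatment label CAR treated, where CAR usually stands for chimeric antigen receptor, a synthetic receptor that directs an immune cell to an antigen. Control-CAR macrophages were labelled with Control-CAR expression and Control-CAR treatment. Hoxb8 macrophages, BMDM (by its usual meaning, bone-marrow-derived macrophages) and progenitors were all labelled WT and untreated. Every sample was labelled as primary cells of bone marrow, and neither the antigen of the CAR, nor what the control receptor lacks, nor the age of the mice is in the labels. Forced expression of the homeobox factor Hoxb8 is a known means of holding myeloid progenitors in a dividing state in culture, and a title is the single label that ties it to a group. The labels do not say that libraries of a group came from separate animals or cultures, so a p-value here speaks of the spread among these libraries, which may be technical. For each gene that spread was estimated over all 5 groups together, although some groups were tighter than others. A p-value therefore does not rest on the groups compared alone.

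Entry into mitosis is driven by cyclin-dependent kinase 1 bound to A and B cyclins, and exit by the anaphase-promoting complex (APC/C), a ubiquitin ligase that marks cyclins and securin for destruction. Between these steps, condensins compact the chromosomes, kinetochores tie them to spindle microtubules, the spindle checkpoint delays anaphase until all are attached, and a midzone and contractile ring then divide the cell. Transcripts of many of these genes build up in G2 and are repressed in cells that have left the cycle, as mature macrophages often have, through promoter elements that include the CCAAT box, bound by NF-Y, and the CHR (cell cycle genes homology region), bound by MuvB complexes with B-Myb and FoxM1 or with the DREAM repressor.

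The promoters of 6 members are shown, each with 250 bases before the gene start and 50 after it, from RefSeq on GRCm38.p6 and read 5′ to 3′ on the gene's own strand. Whether these elements bear on the members' levels was not tested. Capitals mark every CCAAT (or ATTGG on the other strand) and every TTTGAA (or TTCAAA), the core of the CHR.
Ccnb1 (chr13:100786437-100786736, minus strand): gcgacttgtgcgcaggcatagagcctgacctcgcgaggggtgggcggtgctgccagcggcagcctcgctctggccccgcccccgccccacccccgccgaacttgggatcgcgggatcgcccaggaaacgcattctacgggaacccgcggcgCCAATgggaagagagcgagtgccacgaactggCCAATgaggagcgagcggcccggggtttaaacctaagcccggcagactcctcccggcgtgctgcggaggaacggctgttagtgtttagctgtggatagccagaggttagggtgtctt
Cdc20 (chr4:118437294-118437593, minus strand): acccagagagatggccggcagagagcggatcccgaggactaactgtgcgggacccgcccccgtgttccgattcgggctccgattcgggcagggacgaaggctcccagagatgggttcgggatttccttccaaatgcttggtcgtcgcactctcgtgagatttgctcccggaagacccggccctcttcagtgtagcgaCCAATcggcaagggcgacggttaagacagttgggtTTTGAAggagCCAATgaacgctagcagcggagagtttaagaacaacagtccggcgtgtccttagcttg
Plk1 (chr7:122159185-122159484, plus strand): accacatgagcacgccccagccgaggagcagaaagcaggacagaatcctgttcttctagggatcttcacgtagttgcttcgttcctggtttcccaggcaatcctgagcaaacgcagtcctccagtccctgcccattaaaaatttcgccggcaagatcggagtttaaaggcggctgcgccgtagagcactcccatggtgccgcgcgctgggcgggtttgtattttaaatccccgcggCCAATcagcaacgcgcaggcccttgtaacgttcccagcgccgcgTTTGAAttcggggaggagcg
Top2a (chr11:99024140-99024439, minus strand): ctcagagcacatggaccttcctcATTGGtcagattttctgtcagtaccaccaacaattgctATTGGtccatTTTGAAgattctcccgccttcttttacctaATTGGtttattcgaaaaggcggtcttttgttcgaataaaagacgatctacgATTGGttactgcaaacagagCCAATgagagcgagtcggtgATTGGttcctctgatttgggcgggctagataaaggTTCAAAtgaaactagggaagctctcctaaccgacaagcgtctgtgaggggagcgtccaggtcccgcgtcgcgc
Kif11 (chr19:37376132-37376431, plus strand): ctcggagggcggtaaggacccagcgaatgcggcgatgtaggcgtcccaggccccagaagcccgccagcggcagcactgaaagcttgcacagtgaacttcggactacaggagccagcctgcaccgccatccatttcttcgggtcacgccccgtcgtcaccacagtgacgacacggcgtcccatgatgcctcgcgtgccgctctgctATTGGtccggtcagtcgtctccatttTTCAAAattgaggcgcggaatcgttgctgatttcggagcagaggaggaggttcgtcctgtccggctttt
Ube2c (chr2:164769679-164769978, plus strand): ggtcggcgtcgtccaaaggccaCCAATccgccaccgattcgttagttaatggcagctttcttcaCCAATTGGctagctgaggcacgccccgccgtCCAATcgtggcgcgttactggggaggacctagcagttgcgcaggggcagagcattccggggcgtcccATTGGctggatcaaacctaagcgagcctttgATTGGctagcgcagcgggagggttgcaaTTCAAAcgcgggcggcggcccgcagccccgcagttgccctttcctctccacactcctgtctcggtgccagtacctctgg
The Top2a and Ube2c windows each held 6 CCAAT matches, counted on both strands, and in Ube2c a pair of them overlapped. Cdc20 and Plk1 held a TTTGAA with a CCAAT close by, and the Ccnb1 window held 2 CCAAT matches and no TTTGAA. RefSeq windows were found for 39 of the 51 members, 43 windows in all, since Ect2, Prc1 and Cenpk had more than one start. CCAAT stood in 79.1% of the 43 windows and in 37.4% of all 32851 mouse windows of the same length. TTTGAA stood in 72.1% of the members' windows and in 17.9% of all windows. Both were present in 62.8% of the members' windows and 6.95% of all, and neither in 11.6% and 51.7%. Windows with neither were those of Nuf2, Nusap1, Ncaph, Melk and Birc5. A match is a run of letters and not a measured binding site.

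**Figure D1:**
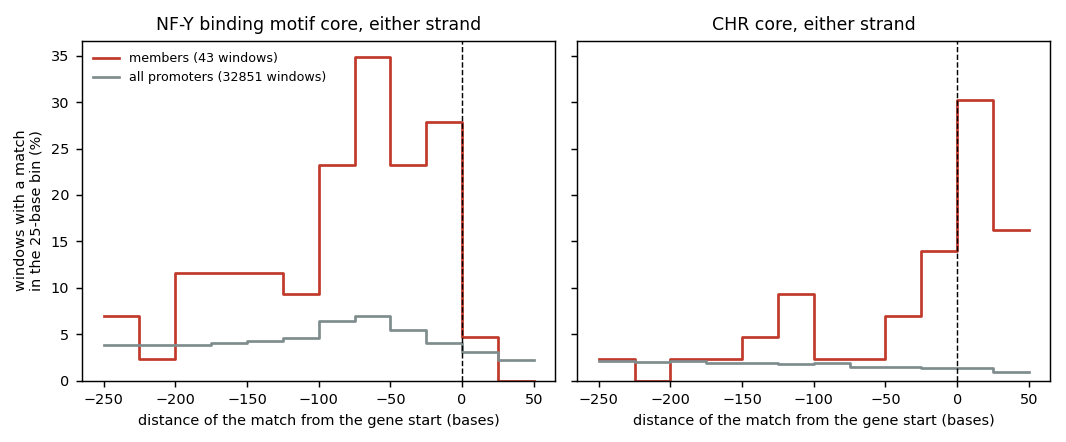
Share of promoter windows (y axis, percent) with a match to the NF-Y motif core (left) or the CHR core (right) in each 25-base bin of distance from the gene start (x axis, bases; dashed line at the start). Red is the 43 windows of the members and grey the 32851 windows of all genes; the members' CCAAT matches are most frequent in the 100 bases before the start, and their CHR matches just after it.

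The libraries held 16962834 to 19221685 estimated counts. Changes are log2 ratios from edgeR's quasi-likelihood test on the counts with TMM scaling, and a gene is "called" at a Benjamini-Hochberg adjusted p under 0.05 over the 11793 genes. A very large share of all genes was called in most comparisons, so each count of members is given with the share of all tested genes called the same way. Scaling by library totals shifted the all-gene median log2 change relative to TMM. The shift was 0.31, 0.18 and -0.48 for CAR macrophages against control-CAR macrophages, BMDM and progenitors, -0.17 and -0.74 for Hoxb8 macrophages against BMDM and progenitors, and -0.64 for BMDM against progenitors. In bulk RNA, fewer cells in division and less of these transcripts per cell cannot be told apart.

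Progenitors had the highest mean FPKM of all 5 groups for each of the 51 members, and control-CAR and Hoxb8 macrophages, called the low pair below, had the lowest. The summed FPKM of the members was 922 to 944 in CAR libraries, 84.0 to 87.8 in control-CAR libraries, 83.2 to 94.5 in Hoxb8 macrophage libraries, 609 to 741 in BMDM libraries and 3140 to 3246 in progenitor libraries. As a share of all counts this was 0.239% to 0.241% in CAR libraries, 0.0263% to 0.0276% in control-CAR libraries, 0.0249% to 0.0300% in Hoxb8 macrophage libraries, 0.159% to 0.205% in BMDM libraries and 0.722% to 0.748% in progenitor libraries. In FPKM, every progenitor library lay above every macrophage library for 50 members, the exception being Anln. The TMM factors were 1.46 to 1.47 in progenitor libraries and 0.824 to 1.05 in the others, so gaps to progenitors are narrower in the model than in FPKM. In control-CAR macrophages the group mean was under 1 FPKM for 31 members, and in Hoxb8 macrophages for 28, while in the other groups no member fell that low. The libraries of a group lay close together in CAR macrophages and progenitors, where the median SD was 4.19% and 2.83% of the mean, and farther apart in BMDM, at 8.81%, control-CAR macrophages, at 15.2%, and Hoxb8 macrophages, at 23.3%. BMDM replicate 3 held the highest value of its group for 35 members, and BMDM replicate 1 the lowest for 40.

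**Figure D2:**
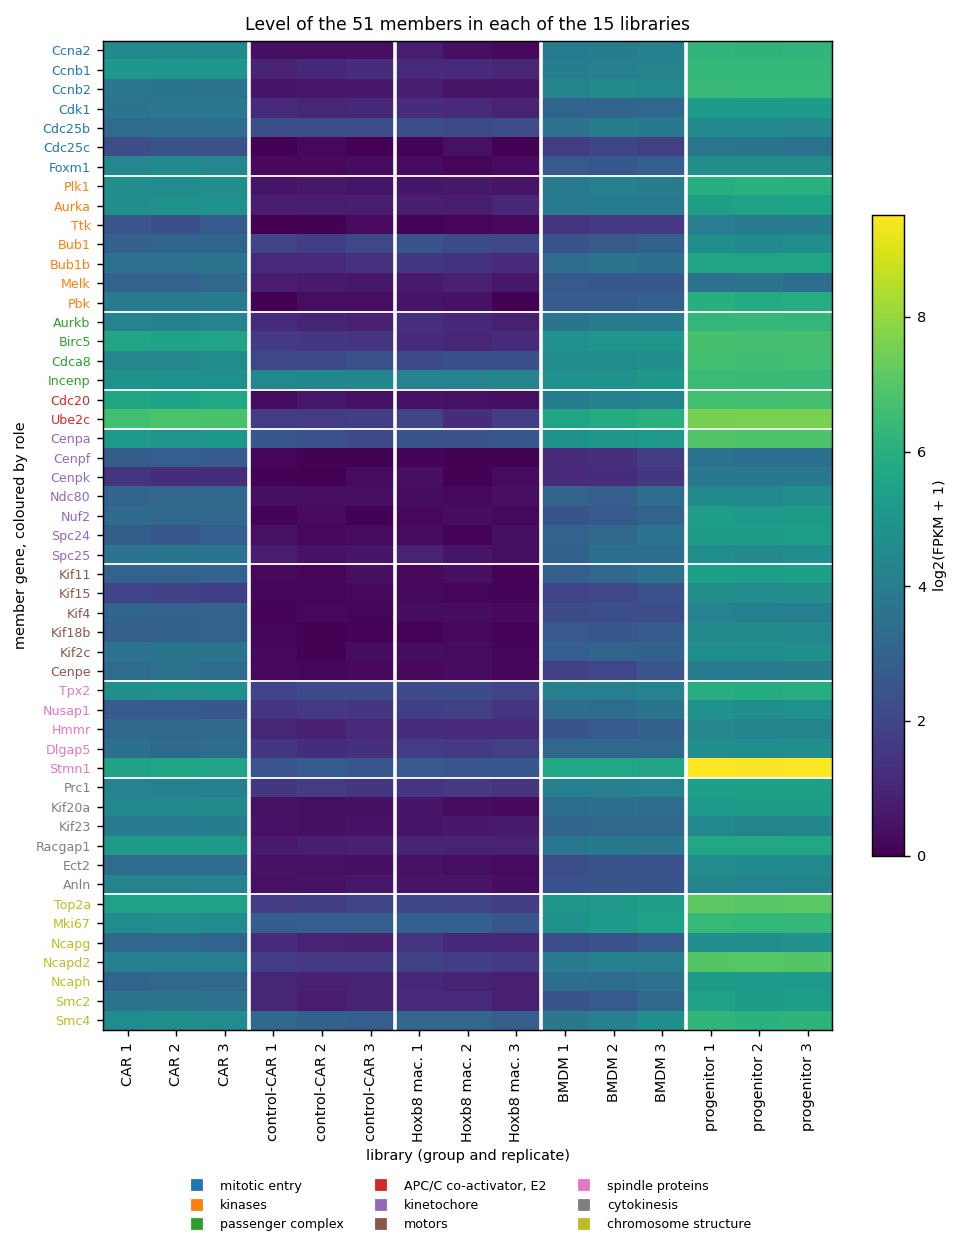
Level of each member (rows, coloured by role) in each of the 15 libraries (columns), as log2(FPKM + 1). The progenitor columns are the brightest, with Stmn1 at 694 to 730 FPKM, and the control-CAR and Hoxb8 macrophage columns the darkest, where Incenp stands out at 17.4 to 20.6 FPKM.

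Of the genes of mitotic entry, cyclin B1 (Ccnb1), the partner of CDK1 at the G2 to M transition, had 32.3, 31.2 and 32.04 FPKM in CAR macrophages, 0.92, 1.11 and 1.34 in control-CAR macrophages, 1.25, 1.28 and 1.02 in Hoxb8 macrophages, 15.2, 15.9 and 17.9 in BMDM and 79.4, 80.3 and 79.6 in progenitors. The 5 groups did not overlap except control-CAR with Hoxb8 macrophages, and CAR macrophages lay above BMDM. Its kinase, Cdk1, had 11.7, 12.5 and 12.9 FPKM in CAR macrophages, 1.23, 1.02 and 1.12 in control-CAR macrophages, 1.29, 1.28 and 0.9 in Hoxb8 macrophages, 7.4, 7.56 and 8.35 in BMDM and 37.2, 35.6 and 36.7 in progenitors. Foxm1, the transcription factor that activates many G2 and M phase genes, had 20.2, 21.7 and 20.3 FPKM in CAR macrophages, 0.19, 0.19 and 0.23 in control-CAR macrophages, 0.25, 0.12 and 0.2 in Hoxb8 macrophages, 5.27, 5.08 and 6.24 in BMDM and 25.5, 25.1 and 25.1 in progenitors. CAR macrophages were close to progenitors for this gene and far above BMDM, with a log2 change of 1.73 (SE 0.0732) against BMDM and 6.34 (SE 0.122) against control-CAR macrophages. The phosphatase gene Cdc25b, whose product removes the inhibitory phosphate from CDK1, had 9.27, 9.9 and 9.79 FPKM in CAR macrophages, 3.93, 3.89 and 3.87 in control-CAR macrophages, 3.87, 3.56 and 3.72 in Hoxb8 macrophages, 11.1, 14.9 and 13.5 in BMDM and 21.1, 21.9 and 21.1 in progenitors. It stayed measurable in all groups, and here BMDM lay above CAR macrophages in every library. Its relative Cdc25c was at the counting limit in the low pair, with counts of 0, 4 and 0 in control-CAR macrophages and 2, 6 and 0 in Hoxb8 macrophages, against 113 to 125 in CAR macrophages. The other cyclins went opposite ways in CAR macrophages against BMDM. Ccna2 averaged 21.5 ± 0.276 FPKM in CAR macrophages and 15.6 ± 1.18 FPKM in BMDM (SD, n = 3 each), a log2 change of 0.28. Ccnb2 averaged 12 ± 0.385 FPKM in CAR macrophages and 20.2 ± 1.39 FPKM in BMDM (SD, n = 3 each). Its log2 change was -0.94 (SE 0.0732), in the other direction.

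Among the mitotic kinases, Plk1, the polo-like kinase of centrosome maturation and cyclin B activation, had 25.3, 23.2 and 24.8 FPKM in CAR macrophages, 0.47, 0.55 and 0.47 in control-CAR macrophages, 0.48, 0.57 and 0.42 in Hoxb8 macrophages, 14.7, 16.2 and 14.8 in BMDM and 62.5, 66.3 and 65.02 in progenitors. Its range in CAR macrophages lay between those of BMDM and progenitors, with no overlap. The checkpoint kinase gene Bub1 had 6.59, 7.36 and 7.36 FPKM in CAR macrophages, 2.85, 2.34 and 3.23 in control-CAR macrophages, 4.51, 3.35 and 3.2 in Hoxb8 macrophages, 4.54, 5.28 and 6.66 in BMDM and 25.3, 21.9 and 24.04 in progenitors. It was the kinase with the most transcript left in the low pair, and its CAR and BMDM ranges overlapped. Bub1 was 15.5% of its progenitor FPKM in Hoxb8 macrophages, while Plk1 was 0.758%, Pbk 0.489% and Ttk, the checkpoint kinase Mps1, 0.719%. Aurka, the Aurora kinase of spindle poles, averaged 26.9 ± 1.4 FPKM in CAR macrophages, 14.1 ± 0.231 FPKM in BMDM and 43.3 ± 1.60 FPKM in progenitors (SD, n = 3 each). Melk averaged 7.33 ± 0.681 FPKM in CAR macrophages and 10.7 ± 0.885 FPKM in progenitors (SD, n = 3 each), the narrowest gap to progenitors among the kinases on the log2 scale.

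The 4 genes of the chromosomal passenger complex, which corrects faulty attachments and starts cytokinesis, did not move as a block. Aurkb, its kinase, had 17.8, 16.9 and 17.4 FPKM in CAR macrophages, 1.18, 0.96 and 0.81 in control-CAR macrophages, 1.52, 1.08 and 0.78 in Hoxb8 macrophages, 12.1, 14 and 13.9 in BMDM and 78.1, 79.5 and 77.2 in progenitors. Birc5 (survivin), which docks the complex at centromeres, had 47.4, 43.2 and 46.5 FPKM in CAR macrophages, 2.04, 1.83 and 1.71 in control-CAR macrophages, 1.21, 1.01 and 1.31 in Hoxb8 macrophages, 27.2, 30.3 and 31.5 in BMDM and 106, 99.7 and 103 in progenitors. For both, CAR macrophages lay above BMDM and below progenitors in every library. Incenp, the scaffold that binds and activates Aurora B, had 27.5, 27.3 and 26.6 FPKM in CAR macrophages, 20.6, 19.5 and 19.6 in control-CAR macrophages, 17.5, 17.4 and 19.3 in Hoxb8 macrophages, 27.02, 28.4 and 31.8 in BMDM and 87.6, 84.9 and 82.97 in progenitors. Its level in the low pair was far above that of its partners, and CAR and BMDM ranges overlapped. Cdca8 (borealin) averaged 21.1 ± 1.62 FPKM in CAR macrophages, 3.53 ± 0.552 FPKM in control-CAR macrophages, 3.82 ± 0.37 FPKM in Hoxb8 macrophages, 23.9 ± 1.08 FPKM in BMDM and 98.1 ± 1.08 FPKM in progenitors (SD, n = 3 each). In Hoxb8 macrophages, Incenp was 21.3% of its progenitor FPKM, against 3.89% for Cdca8, 1.44% for Aurkb and 1.14% for Birc5.

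The APC/C activator Cdc20 and the ubiquitin-conjugating enzyme Ube2c, which starts ubiquitin chains for the APC/C, were low in the low pair and far higher elsewhere. Cdc20 had 47.1, 45.1 and 50.6 FPKM in CAR macrophages, 0.2, 0.53 and 0.34 in control-CAR macrophages, 0.39, 0.33 and 0.31 in Hoxb8 macrophages, 15.1, 16.5 and 18.8 in BMDM and 97.5, 99.8 and 103 in progenitors. Ube2c had 98.05, 113 and 109.9 FPKM in CAR macrophages, 2.13, 2.14 and 2.37 in control-CAR macrophages, 2.87, 1.29 and 2.31 in Hoxb8 macrophages, 45.6, 56.9 and 65.3 in BMDM and 189.6, 193 and 193 in progenitors. Neither CAR nor BMDM libraries overlapped any other group for these genes. Cdc20 was 47.6% of its progenitor FPKM in CAR macrophages, 16.8% in BMDM and 0.343% in Hoxb8 macrophages, the last being the lowest such share of the 51 members.

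At the kinetochore, the centromeric histone Cenpa had 33.4, 31.2 and 32.7 FPKM in CAR macrophages, 4.97, 4.24 and 3.67 in control-CAR macrophages, 4.58, 4.46 and 5.1 in Hoxb8 macrophages, 27.8, 31.6 and 34.8 in BMDM and 122, 117 and 119 in progenitors. Ndc80, the outer kinetochore protein that grips microtubules, had 7.45, 7.81 and 8.23 FPKM in CAR macrophages, 0.31, 0.29 and 0.27 in control-CAR macrophages, 0.24, 0.14 and 0.3 in Hoxb8 macrophages, 7.11, 6.39 and 9.8 in BMDM and 22.1, 22.1 and 24.2 in progenitors. For both genes the CAR values fell inside the BMDM range. In CAR macrophages against BMDM, Ndc80 was not called at -0.17 (SE 0.116). Of the other parts of the NDC80 complex, Nuf2 had a log2 change of 0.33 (SE 0.127) (adjusted p = 0.0254, edgeR), Spc24 one of -0.82 (SE 0.151) (adjusted p = 8.23e-05), and Spc25 was not called at 0.21 (SE 0.141). The call of Nuf2 was lost without BMDM replicate 1 (0.20) or 2 (0.29) or CAR replicate 1 (0.29) or 2 (0.33). Whether these members differ from each other in their change was not tested. Cenpf, a large kinetochore and nuclear matrix protein, averaged 5.94 ± 0.206 FPKM in CAR macrophages, 1.63 ± 0.582 FPKM in BMDM and 10.3 ± 0.537 FPKM in progenitors (SD, n = 3 each). Cenpk, of the inner kinetochore, had counts of 28, 24 and 28 in CAR macrophages, against 1, 0 and 4 in control-CAR macrophages and 226 to 236 in progenitors, so its changes carry wide errors.

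Of the roles, the motors had the lowest median in Hoxb8 macrophages against progenitors. Kif11 (Eg5), the motor that pushes spindle poles apart, had 6.94, 7.17 and 6.87 FPKM in CAR macrophages, 0.16, 0.1 and 0.3 in control-CAR macrophages, 0.19, 0.31 and 0.08 in Hoxb8 macrophages, 6.45, 8.28 and 10.7 in BMDM and 41.6, 39.6 and 40.6 in progenitors. BMDM libraries were spread widely and took in the CAR range. Kif18b, Kif15 and Kif2c, which act on microtubule ends and on spindle bipolarity, were at 0.433%, 0.451% and 0.705% of their progenitor FPKM in Hoxb8 macrophages. Cenpe, the motor that carries chromosomes to the spindle equator, averaged 9.69 ± 0.764 FPKM in CAR macrophages, 3.42 ± 1.19 FPKM in BMDM and 14.8 ± 0.416 FPKM in progenitors (SD, n = 3 each). Kif15 averaged 2.60 ± 0.158 FPKM in CAR macrophages, 3.35 ± 0.757 FPKM in BMDM and 24.4 ± 0.904 FPKM in progenitors (SD, n = 3 each), so the share of the progenitor level in CAR macrophages was 65.3% for Cenpe and 10.7% for Kif15.

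Of the spindle proteins, Tpx2, which activates Aurora A and nucleates microtubules near chromosomes, had 25.3, 26.2 and 26.4 FPKM in CAR macrophages, 2.75, 3.26 and 3.26 in control-CAR macrophages, 3.56, 3.62 and 2.91 in Hoxb8 macrophages, 15.99, 15.9 and 17.8 in BMDM and 59.8, 57.4 and 59.5 in progenitors. Its groups were ordered as for Ccnb1, with no overlap between CAR macrophages and BMDM. Stmn1 (stathmin), which destabilises microtubules, had 43.2, 46.6 and 45.7 FPKM in CAR macrophages, 4.63, 5.47 and 4.89 in control-CAR macrophages, 5.35, 4.78 and 4.96 in Hoxb8 macrophages, 49.8, 49.5 and 45.6 in BMDM and 729.6, 694 and 728 in progenitors. It was the most abundant member in progenitors and nearly equal in CAR macrophages and BMDM, whose ranges overlapped. Hmmr, Nusap1 and Dlgap5, proteins that bundle or stabilise spindle microtubules, kept 1.04 to 2.22 FPKM in control-CAR and Hoxb8 macrophages as group means. Nusap1 averaged 5.24 ± 0.225 FPKM in CAR macrophages and 10.2 ± 1.36 FPKM in BMDM (SD, n = 3 each).

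For cytokinesis, the midzone bundling protein Prc1 had 17.7, 16.5 and 16.98 FPKM in CAR macrophages, 1.92, 2.22 and 1.83 in control-CAR macrophages, 1.84, 2 and 1.77 in Hoxb8 macrophages, 16.2, 16.5 and 17.8 in BMDM and 40.7, 41.4 and 41.6 in progenitors. CAR and BMDM ranges overlapped. Kif20a, a midzone motor that carries the passenger complex, had 20.7, 20.8 and 21.3 FPKM in CAR macrophages, 0.33, 0.29 and 0.32 in control-CAR macrophages, 0.49, 0.26 and 0.17 in Hoxb8 macrophages, 9.94, 10.4 and 9.4 in BMDM and 34.8, 36.1 and 36.8 in progenitors. Here CAR macrophages lay above BMDM in every library. Anln (anillin), the scaffold of the contractile ring, averaged 18.1 ± 0.259 FPKM in CAR macrophages, 0.423 ± 0.102 FPKM in control-CAR macrophages, 0.36 ± 0.0872 FPKM in Hoxb8 macrophages, 4.42 ± 0.159 FPKM in BMDM and 18.3 ± 0.81 FPKM in progenitors (SD, n = 3 each). The CAR level was 98.7% of the progenitor level, the highest such share of the members. For the centralspindlin pair Kif23 and Racgap1, which together bundle midzone microtubules, it was 73.5% and 67.8%, and for Ect2, the RhoA activator that they recruit, 42.3%. In RefSeq coordinates, Kif20a shares 4930 bases with Cdc23, Prc1 shares 21669 with Rccd1, and Ncapg shares 3367 with Lcorl. The strand setting of the counting is not given in the sources used here, so reads of such a pair may be divided between them.

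Among the chromosome structure genes, topoisomerase II alpha (Top2a), which untangles sister chromatids, had 42.6, 43 and 42.3 FPKM in CAR macrophages, 2.14, 2.42 and 2.77 in control-CAR macrophages, 3, 2.89 and 2.28 in Hoxb8 macrophages, 31.9, 33.9 and 38.8 in BMDM and 139.5, 129.96 and 133 in progenitors. Mki67, which encodes the proliferation marker Ki-67 that coats mitotic chromosomes, had 23.8, 24.03 and 23.5 FPKM in CAR macrophages, 5.99, 6.16 and 6.44 in control-CAR macrophages, 6.53, 6.81 and 4.65 in Hoxb8 macrophages, 27.6, 34.6 and 42.2 in BMDM and 81.8, 77.3 and 78.9 in progenitors. For Top2a the CAR libraries lay above BMDM in FPKM, and for Mki67 below. Of the condensin genes, Ncapg, a subunit of condensin I, had 8.37, 8.3 and 7.44 FPKM in CAR macrophages, 1.27, 0.91 and 0.81 in control-CAR macrophages, 1.68, 1.14 and 1.12 in Hoxb8 macrophages, 3.93, 4.24 and 5.43 in BMDM and 24.4, 24.5 and 26.8 in progenitors. Smc2, an ATPase core of both condensins, had 11.7, 11.8 and 10.8 FPKM in CAR macrophages, 1.04, 0.71 and 0.88 in control-CAR macrophages, 1.21, 1.21 and 0.78 in Hoxb8 macrophages, 4.54, 5.52 and 8.14 in BMDM and 42.3, 37.3 and 39.8 in progenitors. For Ncapg and Smc2 CAR macrophages were above BMDM without overlap. Smc4, the other core, kept 6.12 to 8.73 FPKM in control-CAR and 6.29 to 7.72 in Hoxb8 macrophages, more than Smc2 in every one of these libraries.

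**Figure D3:**
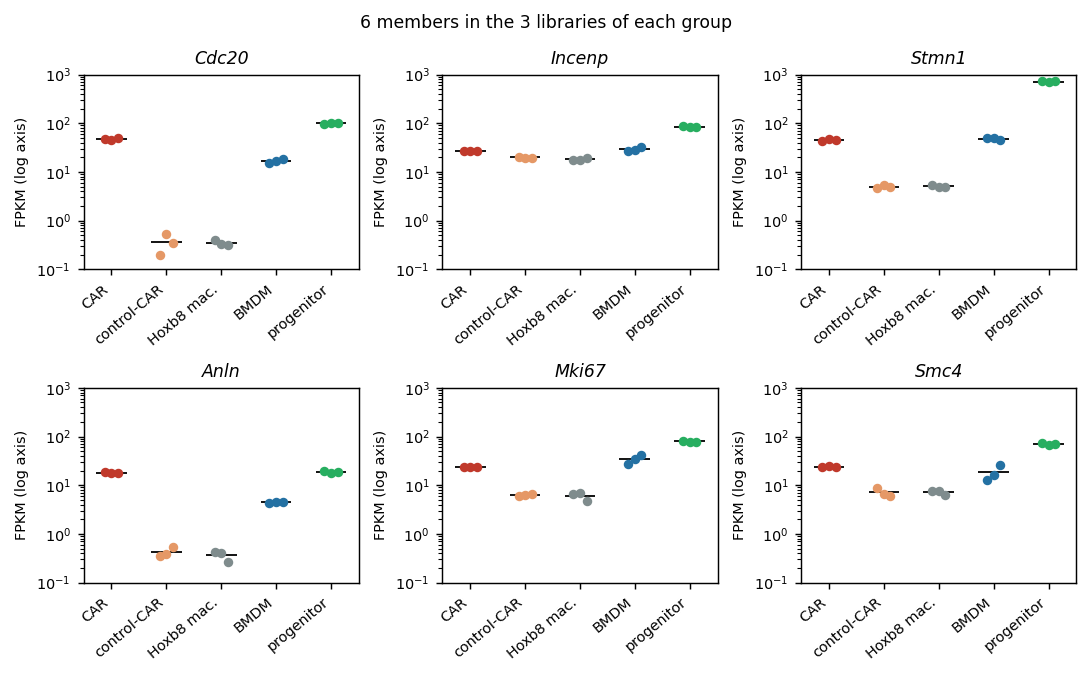
FPKM (log axis, the same in every panel) of 6 members in the 3 libraries of each group; points are libraries and bars the group means. Cdc20 is near 0.3 FPKM in control-CAR and Hoxb8 macrophages while Incenp is at 17.4 to 20.6, Stmn1 is 694 to 730 in progenitors, and Anln is as high in CAR macrophages as in progenitors.

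In CAR against control-CAR macrophages, the contrast named in the series' design, mitotic genes of every role were higher in CAR macrophages. The median log2 change of the members was 4.11, against 0.06 over all tested genes, and it ran from 0.14 (SE 0.0547) for Incenp to 6.73 (SE 0.141) for Cdc20. After Cdc20 the widest changes were those of Foxm1 at 6.34 and Cenpf at 6.27, and after Incenp the narrowest were Cdc25b at 0.99 (SE 0.0868) and Bub1 at 1.03 (SE 0.136). Control-CAR counts were low for the widest: 5, 14 and 9 for Cdc20 and 13, 14 and 17 for Foxm1. Cenpf had 17, 9 and 8 there. All 51 members were called higher and 0 lower, where 41.9% of all tested genes were called higher and 36.8% lower (at an unadjusted p under 0.05, and by DESeq2, the counts were also 51 and 0). At least 2-fold higher were 49 members, against 20% of tested genes. By role, the median change was 6.01 for the APC/C pair, 5.72 for motors, 5.06 for cytokinesis, 4.95 for kinases, 4.52 for entry, 4.28 for the kinetochore, 3.05 for the passenger complex and 2.72 for both spindle proteins and chromosome structure. The adjusted p of Incenp was 0.0257 with edgeR, and its call was lost without CAR replicate 1 (log2 change 0.13), CAR replicate 2 (0.14) or control-CAR replicate 3 (0.14). Every CAR library lay above every control-CAR library for all 51 members, Incenp included.

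Markers of other cells also differed between these groups. A list of 8 mast cell and basophil genes summed to 3587 to 3811 FPKM in CAR libraries and 411 to 461 FPKM in control-CAR libraries. All 7 of its tested genes were called higher, where 41.9% of all tested genes were. Among them Tpsb2 averaged 329 FPKM in CAR macrophages and 4.91 FPKM in control-CAR macrophages, and Fcer1a 97.3 FPKM in CAR macrophages and 0.0267 FPKM in control-CAR macrophages. The CAR sum was mostly Cpa3, at a mean of 2220 FPKM, against 28.2 FPKM in control-CAR macrophages. The control-CAR sum was mostly Hdc, at 396 FPKM, against 681 FPKM in CAR macrophages. The list of 8 macrophage genes summed to 5582 to 5739 FPKM in CAR libraries and 12020 to 12849 in control-CAR libraries. All but Mertk, 7 genes, averaged at least 1 FPKM in both groups. In CAR macrophages 7 of the 8 were called lower and 1 higher, where 36.8% and 41.9% of all tested genes were. The median log2 change of the list was -1.03. The 8 progenitor genes summed to 161 to 175 FPKM in CAR libraries and 13.4 to 15.5 in control-CAR libraries, against 2871 to 2926 in progenitor libraries. Of these genes 4 were called higher in CAR macrophages and 0 lower, where 41.9% and 36.8% of all tested genes were. The CAR sum was mostly Ctsg, at a mean of 113 FPKM, and Cd34, at 40.8 FPKM. Kit averaged 4.71 FPKM in CAR macrophages and 4.02 FPKM in control-CAR macrophages, and Flt3 was under 0.1 FPKM in both. The fibroblast list summed to 46.0 to 47.3 FPKM in CAR libraries and 0.88 to 1.32 in control-CAR libraries, the erythroid list to 63.3 to 74.5 FPKM in CAR libraries and 1.62 to 3.54 in control-CAR libraries, and the epithelial list to 9.47 to 9.65 FPKM in CAR libraries and 0.51 to 0.87 in control-CAR libraries. Of the listed genes, Sparc, Postn, Epcam and Mcpt4 were at 0 in control-CAR macrophages. In CAR macrophages Sparc averaged 16.4 FPKM, but Postn 0.00667, Epcam 0.02 and Mcpt4 0.81 FPKM. The highest CAR means were those of Col1a2 (23.9 FPKM) in the fibroblast list, Hbb-bt (62.0 FPKM) in the erythroid list and Krt20 (5.46 FPKM) in the epithelial list. The T and NK cell list and the B cell list summed to under 1 FPKM in every library of both groups, and Cd3e and Ms4a1 were at 0. The part of any of these in the members' change was not tested.

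Against BMDM, the CAR macrophages were higher for some mitotic genes and lower for others. The median log2 change was 0.31, against 0.02 over all tested genes. Called higher were 28 members, where 39.2% of tested genes were, and called lower 13, where 37.8% were, so the share called lower was below and the share called higher above that of all genes. At least 2-fold higher were 9 members, against 14.2% of tested genes. The widest changes were 1.86 (SE 0.0787) for Anln, 1.73 (SE 0.0732) for Foxm1 and 1.68 (SE 0.143) for Cenpf, followed by Cenpe at 1.33, Cdc20 at 1.32 and Racgap1 at 1.25. Of the cytokinesis genes 5 of 6 were higher, with a median of 0.97, and both APC/C genes and 5 of 7 kinases were higher. Of chromosome structure genes, 2 were higher (Ncapg and Smc2), 3 lower and 2 not called.

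The 13 members that were lower in CAR macrophages than in BMDM came from 7 roles. The furthest was Nusap1 at -1.14 (SE 0.102), then Ccnb2 at -0.94, Spc24 at -0.82, Mki67 at -0.74, Cdc25b at -0.63, Ncaph at -0.58, Kif15 at -0.54, Kif11 at -0.45, Cdca8 at -0.37, Stmn1 at -0.29, Incenp at -0.28, Prc1 at -0.21 and Ncapd2, of condensin I, at -0.17. Not called were Bub1, Bub1b, Cenpa, Cenpk, Ndc80, Spc25, Kif18b, Dlgap5, Top2a and Smc4, with log2 changes between -0.25 (Cenpk) and 0.21 (Spc25); the smallest in size were Dlgap5 at 0.04, Bub1b at -0.09 and Cenpa at -0.10. The TMM factors were 1.05 in CAR libraries and 0.897 to 0.961 in BMDM libraries, so a member can be level in the model and higher in FPKM, and by mean FPKM 39 members were higher in CAR macrophages. On library totals, 8 members were lower, and on log2(TPM + 1) 6 were. Prc1 and Ncapd2 turned to the other sign on FPKM and TPM scales. BMDM replicate 3 weighed on several members: without it Kif11 was at -0.27 and no longer called, and Bub1 at 0.33 and Smc4 at 0.50 became called. Of the 41 calls, 12 were lost in some other setting of scaling, filter or model, and 35 in the test against a 2-fold change. The 12 were Aurkb, Ccna2, Cdc25c, Cdca8, Incenp, Kif11, Kif15, Ncapd2, Nuf2, Prc1, Spc24 and Stmn1. When a library was left out, 5 of the 41 were lost. Besides Kif11 and Nuf2 (given above), Ncapd2 was lost without BMDM replicate 2 (-0.13) or 3 (-0.15) or CAR replicate 2 (-0.14) or 3 (-0.15). Aurkb, at 0.20 (SE 0.0840), was lost without BMDM replicate 1 (0.15) or CAR replicate 1 (0.18), 2 (0.22) or 3 (0.20), and Cdc25c, at 0.54 (SE 0.196), without CAR replicate 2 (0.52).

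Marker lists of other cells differed here too, and varied between BMDM replicates. The progenitor list summed to 161 to 175 FPKM in CAR libraries, against 155, 255 and 274 FPKM in BMDM replicates 1, 2 and 3. The members summed to 922 to 944 FPKM in CAR libraries, against 609, 674 and 741 FPKM in the same BMDM replicates. The B cell list summed to under 1 FPKM in CAR libraries and 30.3 to 55.1 FPKM in BMDM libraries, and the mast cell and basophil list to 3587 to 3811 FPKM in CAR libraries and 267 to 289 FPKM in BMDM libraries. Their part in the members' levels was not tested.

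**Figure D4:**
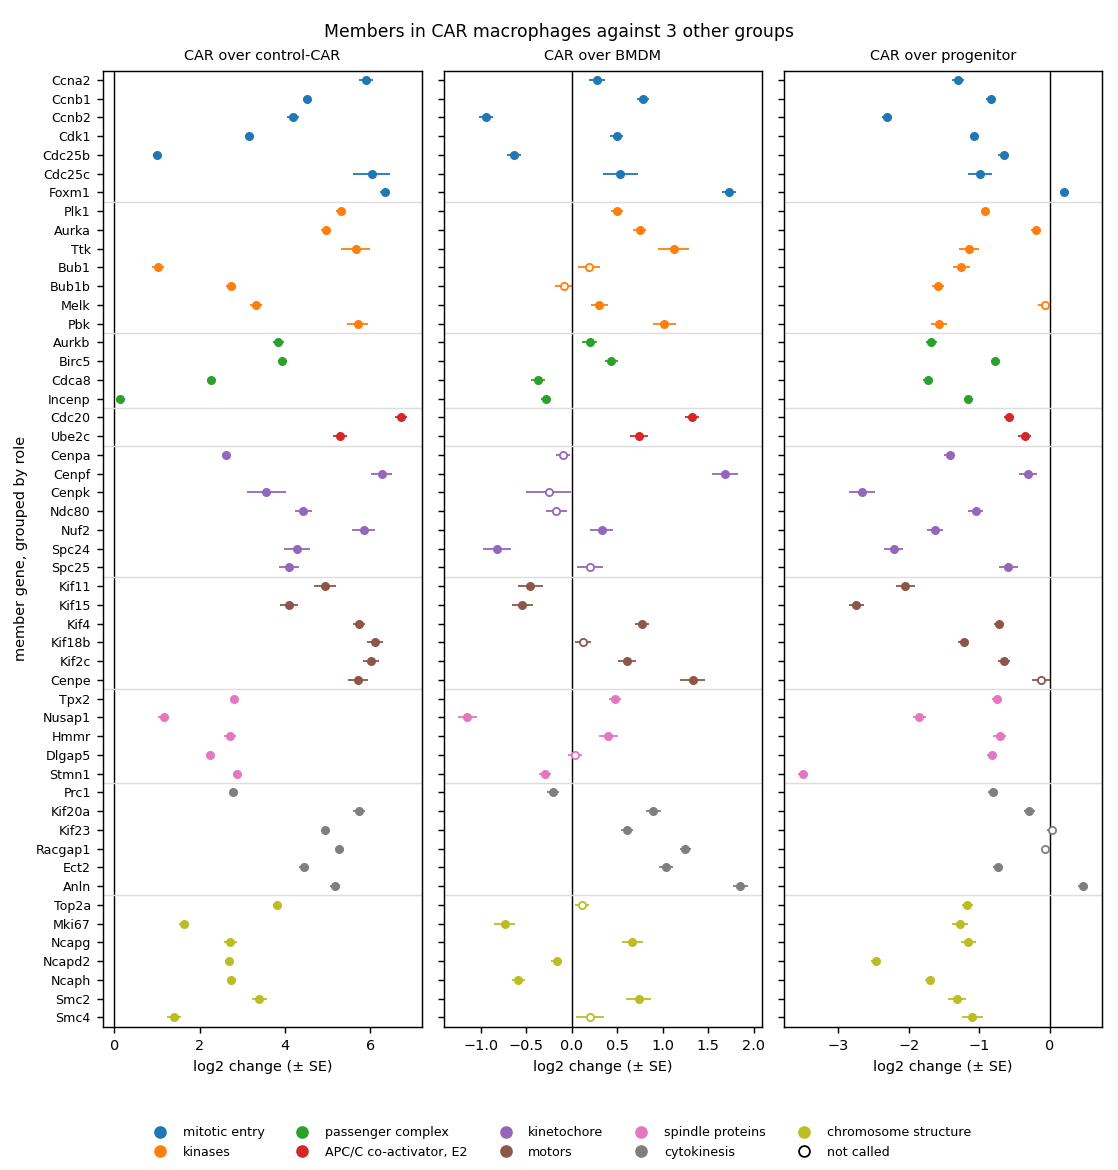
Log2 change (x axis, with SE) of each member (rows, coloured by role) in CAR macrophages over control-CAR macrophages, BMDM and progenitors, from edgeR; filled points are called and open points are not. All points lie right of 0 in the left panel, both sides are taken in the middle panel, and all but Anln, Foxm1 and Kif23 lie left of 0 in the right panel.

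Set against progenitors, most mitotic genes were lower in CAR macrophages, by a median log2 change of -1.07, while the median of all tested genes was 0.07. Called lower were 45 members, where 39.7% of tested genes were, and called higher 2, where 45.9% were. At least 2-fold lower were 27 members, against 16% of tested genes, a count that was 41 on library totals and on the FPKM and TPM scales. The furthest were Stmn1 at -3.50 (SE 0.0618), Kif15 at -2.74 (SE 0.105) and Cenpk at -2.67 (SE 0.188). Called higher were Anln at 0.47 (SE 0.0714) (adjusted p = 7.48e-06, edgeR) and Foxm1 at 0.20 (SE 0.0666) (adjusted p = 0.00851, edgeR), and neither was higher on library totals, at -0.02 for Anln and -0.28 for Foxm1. The call of Foxm1 was also lost without CAR replicate 2 (0.17) or without progenitor replicate 1 (0.18), 2 (0.17) or 3 (0.16). Not called were Kif23 at 0.02, Racgap1 at -0.07, Melk at -0.07 and Cenpe at -0.13. Cytokinesis genes had the least change of the roles, with a median of -0.18, and the passenger complex and the kinetochore the most, with -1.43 and -1.42. The calls of Cenpf, at -0.31, and Aurka, at -0.21, were lost without CAR replicate 1, among others for Cenpf. Marker lists differed here too (summed FPKM in CAR, then progenitor libraries). The macrophage list was at 5582 to 5739 and 207 to 228. The mast cell and basophil list was at 3587 to 3811 and 1553 to 1672. The erythroid list was at 63.3 to 74.5 and 1.08 to 2.12. Lower in CAR libraries was the progenitor list, at 161 to 175 and 2871 to 2926. So was the T and NK cell list, at 0.09 to 0.27 and 26.5 to 32.8. Their part in the members' change was not tested.

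Between control-CAR macrophages and Hoxb8 macrophages, hardly any of these genes differed beyond the spread. The median log2 change was -0.16 and that of all genes 0.00. By edgeR, 0 members were called higher, where 0.721% of tested genes were, and 1 was called lower, where 1.9% were. At an unadjusted p under 0.05 the counts were 1 and 5, and DESeq2 called 0 and 1. The one called was Dlgap5, at 1.81, 1.37 and 1.46 FPKM in control-CAR macrophages, against 2.11, 2.08 and 2.46 FPKM in Hoxb8 macrophages. Its log2 change was -0.54 (SE 0.116) (adjusted p = 0.0178, edgeR), a call lost without control-CAR replicate 2 (adjusted p = 0.0604) or 3 (adjusted p = 0.0831) or Hoxb8 macrophage replicate 3 (adjusted p = 0.065). With only these groups fitted, 0 members were called. The groups did not overlap for Dlgap5, nor for some members not called, such as Kif4, Kif23 and Racgap1. Birc5 did not overlap in the other direction, at 2.04, 1.83 and 1.71 FPKM in control-CAR and 1.21, 1.01 and 1.31 FPKM in Hoxb8 macrophages. The widest changes were in low genes: Kif4 at -1.02 (SE 0.277), Cenpk at -0.98 (SE 0.727) and Cdc25c at -0.97 (SE 0.984), none of them called. Members with almost the same level were Kif20a (0.33, 0.29 and 0.32 FPKM in control-CAR macrophages, 0.49, 0.26 and 0.17 FPKM in Hoxb8 macrophages), Mki67 and Prc1, given above.

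In Hoxb8 macrophages every member was lower than in BMDM, by a median log2 change of -3.65, against -0.05 over all tested genes. Called lower were 51 members, where 38.3% of tested genes were, and called higher 0, where 32% were (also 51 and 0 at an unadjusted p under 0.05, and by DESeq2). At least 2-fold lower were 49, against 16.2% of tested genes. Kif18b at -5.65 (SE 0.182), Cdc20 at -5.43 (SE 0.158) and Spc24 at -5.31 (SE 0.29) were the furthest apart. Hoxb8 macrophage counts were low there: 4, 8 and 3 for Kif18b, 10, 9 and 8 for Cdc20 and 4, 1 and 6 for Spc24. Bub1 at -0.41 (SE 0.133), Incenp at -0.52 (SE 0.0548) and Smc4 at -1.14 (SE 0.168) were the nearest. The call of Bub1 (adjusted p = 0.0113, edgeR) was lost without BMDM replicate 3 (log2 change -0.27), Hoxb8 macrophage replicate 2 (-0.34) or replicate 3 (-0.31). Marker lists also differed in this comparison, not all in one direction. The macrophage sums overlapped, at 12466 to 13119 FPKM in Hoxb8 macrophage libraries and 12584 to 13738 FPKM in BMDM libraries. The mast cell and basophil sum was higher in Hoxb8 macrophage libraries, at 407 to 418 FPKM, against 267 to 289 FPKM in BMDM libraries. In that list Hdc averaged 380 and 144 FPKM, and of 7 tested genes 2 were called higher and 4 lower. The progenitor list summed to 12.4 to 15.2 FPKM in Hoxb8 macrophage libraries and 155 to 274 FPKM in BMDM libraries, with 7 of its 8 genes called lower. The B cell list summed to 0.15 to 0.18 FPKM in Hoxb8 macrophage libraries, with Ms4a1, Cd79b and Pax5 at 0, and 30.3 to 55.1 FPKM in BMDM libraries. The fibroblast list summed to 0.66 to 1.44 FPKM in Hoxb8 macrophage libraries and 17.5 to 19.4 FPKM in BMDM libraries. The epithelial list summed to 0.41 to 1.2 FPKM in Hoxb8 macrophage libraries and 20.6 to 25.2 FPKM in BMDM libraries. Its BMDM sum was mostly Cdh1, at a mean of 20.6 FPKM, while Krt8 and Krt20 were at 0 in BMDM. Krt19 went the other way, at 0.0567 FPKM in BMDM and 0.523 FPKM in Hoxb8 macrophages. The part of these lists in the members' change was not tested.

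Of the comparisons run, Hoxb8 macrophages against progenitors had the widest median change. The median log2 change was -5.24, against 0.06 over all tested genes, and it ran from -7.34 (SE 0.137) for Cdc20, -7.06 (SE 0.255) for Cenpf and -7.00 (SE 0.16) for Kif18b to -1.86 (SE 0.124) for Bub1, -1.68 (SE 0.0836) for Cdc25b and -1.403 (SE 0.0540) for Incenp. The widest rest on low Hoxb8 macrophage counts: 10, 9 and 8 for Cdc20, 13, 6 and 5 for Cenpf and 4, 8 and 3 for Kif18b. On log2(FPKM + 1) the members' median was -4.28. All 51 members were called lower, where 39.6% of tested genes were, and 0 higher, where 44.7% were (also 51 and 0 at an unadjusted p under 0.05, and by DESeq2). All 51 were also at least 2-fold lower, against 22.3% of tested genes. The median by role was -6.59 for motors, -6.49 for the APC/C pair, -6.05 for entry, -5.79 for the kinetochore, -4.91 for cytokinesis, -4.89 for kinases, -4.56 for the passenger complex, -4.38 for chromosome structure and -3.11 for spindle proteins. Macrophage genes went the other way, with a summed list of 12466 to 13119 FPKM in Hoxb8 macrophage libraries, against 207 to 228 FPKM in progenitor libraries, and the progenitor list summed to 12.4 to 15.2 FPKM in Hoxb8 macrophage libraries and 2871 to 2926 FPKM in progenitor libraries.

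BMDM lay between the low pair and the progenitors. Against progenitors, the median log2 change was -1.39 and that of all genes 0.10. Called lower were 50 members, where 40.7% of tested genes were, and called higher 0, where 46.6% were (also 50 and 0 at an unadjusted p under 0.05, and by DESeq2). At least 2-fold lower were 40, against 20.9% of tested genes. Stmn1 at -3.21 (SE 0.0609), Pbk at -2.59 (SE 0.121) and Cenpk at -2.42 (SE 0.186) changed most, and Cdc25b at -0.03 (SE 0.0726), which was not called, Melk at -0.38 (SE 0.0939) and Mki67 at -0.54 (SE 0.114) least. These contrasts share libraries with the ones above, so their values are given side by side and not as independent support. The macrophage list summed to 12584 to 13738 FPKM in BMDM libraries and 207 to 228 FPKM in progenitor libraries, and the B cell list to 30.3 to 55.1 FPKM in BMDM libraries and 0.16 to 0.29 FPKM in progenitor libraries, and their part in the members' change was not tested.

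**Figure D5:**
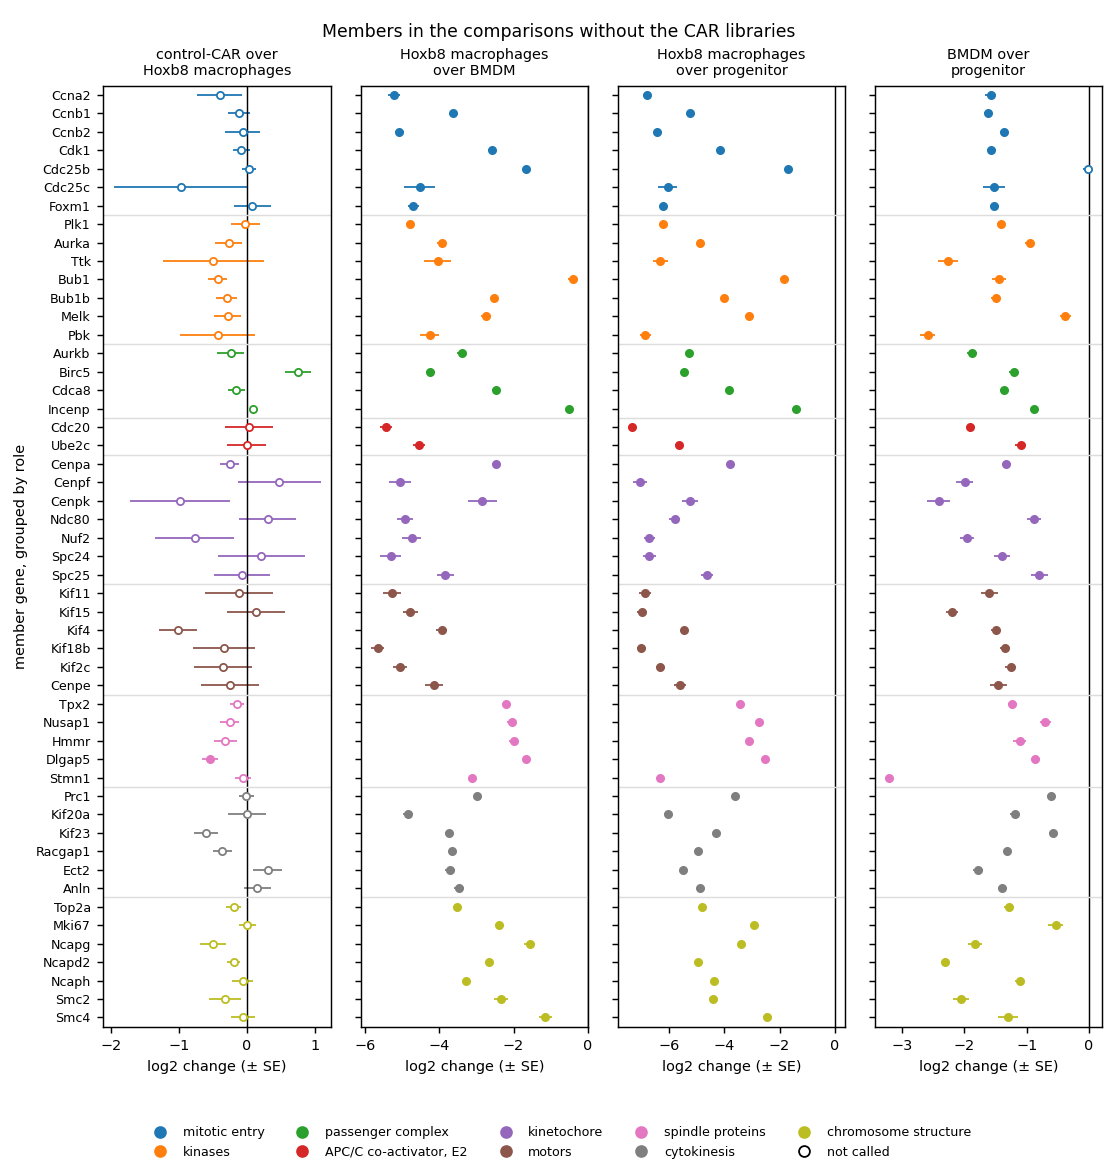
Log2 change (x axis, with SE; each panel has its own range) of each member (rows, coloured by role) in the 4 comparisons that do not use the CAR libraries, from edgeR; filled points are called. In control-CAR over Hoxb8 macrophages Dlgap5 alone is filled, and in the other panels all points lie at or left of 0.

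Other genes of mitosis, in 7 lists with 118 genes that were all tested, followed the members in part. In CAR against control-CAR macrophages 87 were called higher and 13 lower, where 41.9% and 36.8% of all tested genes were, with a median log2 change of 1.32. Of 34 further kinetochore and checkpoint genes 31 were higher and 2 lower, led by Ska1, a microtubule coupler of the kinetochore, at 2.55 ± 0.171 FPKM in CAR macrophages and 0.04 ± 0.0173 FPKM in control-CAR macrophages (SD, n = 3 each). Of 24 further spindle and cytokinesis genes 22 were higher and 1 lower, led by Depdc1a with a log2 change of 7.42 (SE 0.529). Of 11 further entry genes 10 were higher and 0 lower, led by Cks1b, a CDK-binding subunit, at 87.8 ± 1.46 FPKM in CAR macrophages and 3.31 ± 0.233 FPKM in control-CAR macrophages (SD, n = 3 each).

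Lists of genes that also act outside mitosis were mixed, and their counts are to be read against the same 41.9% higher and 36.8% lower over all tested genes. Of 17 APC/C subunits and regulators, 6 were higher and 5 lower in CAR than in control-CAR macrophages, with a median of -0.03, and the furthest was the APC/C inhibitor Fbxo5 (Emi1) at 4.62 (SE 0.245). Of 17 cohesin and separase genes 9 were higher and 3 lower, with a median of 0.72, led by Esco2, a cohesin acetyltransferase, at 5.25 (SE 0.474). Of 12 DREAM and MuvB genes 7 were higher and 2 lower, led by Mybl2 (B-Myb) at 5.07 (SE 0.167), which averaged 15.1 ± 0.0954 FPKM in CAR macrophages, 0.357 ± 0.235 FPKM in control-CAR macrophages, 0.393 ± 0.0404 FPKM in Hoxb8 macrophages, 6.93 ± 0.536 FPKM in BMDM and 102 ± 3.01 FPKM in progenitors (SD, n = 3 each). Of the 3 further condensin genes 2 were higher and 0 lower, with Ncapg2 at 1.57 (SE 0.121).

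Against progenitors, 7 of the 118 were higher and 96 lower in CAR macrophages, where 45.9% and 39.7% of all tested genes were. In Hoxb8 macrophages 9 were higher and 100 lower, where 44.7% and 39.6% were. The kinetochore and checkpoint list had 33 of 34 lower in CAR macrophages (furthest Cenpp, at -2.93, SE 0.182) and 32 of 34 in Hoxb8 macrophages (furthest Knl1, at -8.23, SE 0.287). The spindle and cytokinesis list had 21 of 24 (Depdc1b, -3.03, SE 0.112) and 24 of 24 (Kif18a, -8.06, SE 0.423). The entry list had 11 of 11 in both, led by Wee1, the kinase that restrains CDK1, at -2.96 (SE 0.0963) in CAR macrophages and by Cdkn3 at -5.30 (SE 0.309) in Hoxb8 macrophages. The DREAM and MuvB list had 9 of 12 in both, led by Tfdp2 at -2.72 (SE 0.0898) and Mybl2 at -7.24 (SE 0.149). Cohesin and separase genes had 9 of 17 and 12 of 17 lower, with Esco2 furthest in both, at -2.21 (SE 0.181) and -6.34 (SE 0.317). The APC/C list had 10 of 17 and 9 of 17 lower, with Fbxo5 furthest in both, at -1.52 (SE 0.118) and -5.54 (SE 0.197), and all 3 condensin genes were lower in both, led by Ncapd3 at -1.98 (SE 0.0933) and Ncapg2 at -3.03 (SE 0.115).

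Across the 15 libraries, which form 5 clusters of 3 and so carry the group differences in any correlation, the 10 genes outside the members most like their mean log2(FPKM + 1) included Tacc3, Ska1 and Tk1 (Pearson r of 0.998 each), Fbxo5 (0.997), and Kif22, Mcm5, Asf1b, Brd9 and E2f8 (0.996 each). Of these 10, Tacc3, Ska1, Fbxo5 and Kif22 were on the lists of other mitotic genes. Tacc3, a spindle protein, averaged 22.9 FPKM in CAR macrophages, 1.46 in control-CAR macrophages, 1.59 in Hoxb8 macrophages, 18.2 in BMDM and 69.6 in progenitors. Among the members, Incenp (0.889), Bub1 (0.917) and Cenpk (0.922) were least like the mean of the others.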

How the data were processed

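Poly(A) RNA of 15 mouse bone marrow samples was sequenced on a BGI platform, per the labels' protocols. The submitters' processing notes name HISAT2, Bowtie2, RSEM 1.3.1, DESeq2 1.4.5 and the build GRCm38.p6. The order of the tools and whether counting used strand are not given there. The authors deposited estimated counts per gene without normalisation, going by the file headers and values. They also deposited FPKM and TPM values, per the file headers. Columns of averages, 15 in all, were not used.

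Counts were rounded and fitted with edgeR 4.0.16 (R 4.3.3) quasi-likelihood models with TMM, a mean per group over all 15 libraries, 10 residual degrees of freedom and no block. Tests were two-sided, with Benjamini-Hochberg adjustment over 11793 genes; 5237 others did not reach an FPKM of 1 in 3 libraries. Levels are mean FPKM ± SD. Alternatives used DESeq2 1.42.0 and limma 3.58.1 among 26 settings. Named genes were a set of members given in every library, the 3 largest and 3 smallest changes per comparison, uncalled members, the furthest gene of each other list and the 10 genes most like the members; 1 of these and some marker genes are not reported here. The members and lists were chosen with earlier results of these data known. TMM takes most genes as unaltered, and promoter windows were searched with Python 3.11.15 on both strands.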

Additional observations from a re-analysis of the deposited data

How the results depend on the processing

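Of 26 alternative settings, those that leave out a library bear on the comparisons that use it. Counts of members called that moved by more than 1.5 times are given here; why they moved was not tested. In CAR macrophages against BMDM, the members called lower (13) were 8 on library totals, 7 on log2(FPKM + 1), 5 on log2(FPKM + 0.1), 6 on log2(TPM + 1) and 0 in a test against a 2-fold change, in which 6 were higher in place of 28. In CAR macrophages against progenitors, the members called higher (2) were 0 on library totals, on both FPKM scales, on TPM and against 2-fold, and 1 with the upper quartile, with no filter, with quantile normalisation, and 1 to 2 with a library left out. There, 22 were lower against 2-fold, and 41 at least 2-fold lower on library totals, both FPKM scales and TPM in place of 27. In control-CAR against Hoxb8 macrophages, 1 was higher on library totals, both FPKM scales, TPM and quantile normalisation, 3 were lower on log2(FPKM + 0.1), 0 with only these groups and against 2-fold, and 0 to 1 with a library left out. The labels do not say what a replicate number marks. Deviations of same-numbered libraries from their group means had correlations from -0.144 to 0.031. Such values cannot show whether these libraries shared an animal or a day. With a replicate block the members higher and lower were 51 and 0 for CAR against control-CAR macrophages, 27 and 13 for CAR macrophages against BMDM, 2 and 45 for CAR macrophages against progenitors, 0 and 1 for control-CAR against Hoxb8 macrophages, 0 and 51 for Hoxb8 macrophages against BMDM, 0 and 51 for Hoxb8 macrophages against progenitors, and 0 and 50 for BMDM against progenitors.

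Of 5270 recomputed log2 changes of single members, 5032 kept their sign and side of the threshold, 144 lost a call, 51 gained one and 43 changed sign. These covered all 51 members in each comparison except control-CAR against Hoxb8 macrophages, where only Kif4, Cenpk, Cdc25c and Dlgap5 were recomputed. The signs of the other members there were not checked. For CAR macrophages against BMDM, the sign changed on library totals for Bub1b (0.089), Cenpa (0.0784), Ndc80 (0.0045) and Ncapd2 (0.0101). On log2(FPKM + 1) it changed for Bub1b (0.0893), Cenpa (0.0517), Ndc80 (0.0287), Prc1 (0.0198) and Ncapd2 (0.0201), and on log2(FPKM + 0.1) for Bub1b (0.0972), Cenpa (0.0533), Ndc80 (0.0343), Prc1 (0.0209) and Ncapd2 (0.0214). On log2(TPM + 1) it changed for Bub1b (0.1646), Cenpa (0.1279), Cenpk (0.0466), Ndc80 (0.1023), Prc1 (0.0945) and Ncapd2 (0.0946). For CAR macrophages against progenitors, Foxm1 was at -0.2798 on library totals, -0.2704 and -0.2811 on log2 of FPKM + 1 and FPKM + 0.1, and -0.3184 on TPM, and Anln at -0.0189, -0.0165, -0.0173 and -0.0607 in the same settings. Kif23 was at -0.0105 by DESeq2, -0.4604 on library totals, -0.1263 with the upper quartile, -0.0606 with no filter, -0.4178 and -0.44 on FPKM, -0.4706 on TPM and -0.1099 with quantile normalisation. With a library left out, the log2 changes that changed sign ranged as follows.
The range was Bub1b from -0.1504 to 0.0037 (CAR macrophages against BMDM), Ndc80 from -0.2935 to 0.0099 (CAR macrophages against BMDM), Dlgap5 from -0.0121 to 0.0866 (CAR macrophages against BMDM), Kif23 from -0.0466 to 0.036 (CAR macrophages against progenitors), Cdc25c from -4.8175 to 0.3432 (control-CAR against Hoxb8 macrophages) and Cdc25b from -0.1213 to 0.0606 (BMDM against progenitors). Low counts went with wide errors: in control-CAR against Hoxb8 macrophages the SE of the log2 change was 0.984 for Cdc25c and 0.116 for Dlgap5.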
